A study of Homo sapiens with 4 samples.

Results

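The regions described here are broad control domains of H3K4me3, trimethylation of lysine 4 of histone H3, whose summit lies close to one edge. They come from the list of peaks called in control cells of MDA-MB-231, a triple-negative breast cancer line. The domains were chosen by measured values, namely width and summit position in the control list. A domain was included when it spanned from 4 kb to under 10 kb and when its summit, the position of the highest pile-up of tags, lay below 0.15 or above 0.85 of its length. Of the 36677 control peaks, 109 met both conditions (0.297%, exact Clopper-Pearson 95% interval 0.244 to 0.358%). They made up 0.923% of the 11808 control peaks of these lengths. The summit lay at the low-coordinate end in 58 of them and at the high-coordinate end in 51. For comparison, 6049 control domains of the same lengths had their summit between 0.4 and 0.6 of the length, and these are called central-summit domains below.

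The study compared control cells with cells labelled as ARID1A knockout, both labelled as triple-negative breast cancer cells. Each genotype had 1 immunoprecipitate (IP) made with an H3K4me3 antibody and 1 input library, 4 libraries in all, from chromatin cut with micrococcal nuclease. The labels used here do not say how the gene was disrupted or whether the knockout cells are 1 clone. With 1 IP per genotype no difference had a replicate check, no test was made, and every interval below covers counting error over regions or tags only.

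H3K4me3 is written by the SET1 and MLL methyltransferase complexes and is concentrated at the start sites of active genes, above all at promoters in CpG islands. It usually flanks a nucleosome-depleted start site on both sides, and it often reaches further along the gene body on one side than on the other. ARID1A is a DNA-binding subunit of the BAF form of the SWI/SNF complex, which moves and evicts nucleosomes at promoters and enhancers.

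The IP libraries differed greatly before any domain was selected. The control IP held 27748061 tags and the knockout IP 13391724. The control peaks had a median width of 2968 bp, whereas the knockout peaks had a median width of 300 bp, the fragment length given to the peak caller. Peaks took 62.1% of the control tags and 99.4% of the knockout tags. Exactly 300 bp was the width of 55.0% of the knockout peaks. The part of these differences in the results below was not tested.

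The one-sided domains were weakly marked for their width. Their median tag count in the control IP was 324 (quartiles 210 and 526), and the range ran from 135 to 2492 tags. Central-summit domains had a median of 948 tags (630 and 1308). Widths differed less, with medians of 5795 bp (4797 and 7430 bp) and 5570 bp (4740 and 6729 bp). Per kb of domain, the medians were 52.9 control tags for the one-sided and 171 for the central-summit domains. The authors' fold enrichment over the input background had a median of 22.9 in the one-sided and 101.85 in the central-summit domains. Their false discovery rate (FDR) was 1% or less for 84 of the one-sided domains and reached 23.73% among the others. The summit and the tags came from the same peak call, so these values describe the selected domains and no test was applied.

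Both ends had similar tag counts, and the counts followed summit position. Domains with the summit at the low-coordinate end had a median of 336 tags, and those with it at the high-coordinate end had 302. When the domains of these lengths were ordered by the distance of the summit from the nearer edge, the median tag count was 310 for summits at 10 to 15% of the length. It was 443 at 15 to 20%, 738.5 at 25 to 30% and 953.5 at 45 to 50%. The 19 domains with a summit within the outer 10% had a median of 382 tags and did not continue the fall. Measured in bp, the summits of the one-sided domains lay between 287 and 1338 bp from the nearer edge, with a median of 712 bp.

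**Figure D1:**
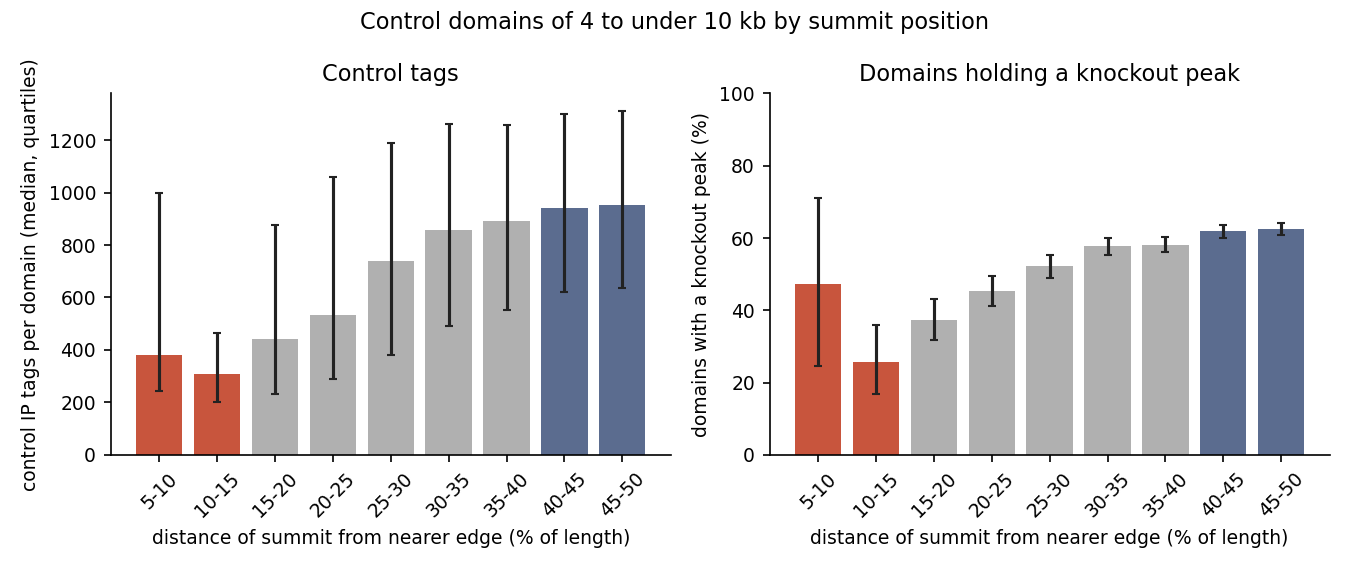
Control domains of 4 to under 10 kb in bands of summit position, given as the distance from the nearer edge in percent of the domain length. Left, median control IP tags per domain with quartiles; right, percentage of domains that share at least 1 bp with a knockout peak, with exact 95% intervals; the first 2 bands (red) are the one-sided and the last 2 (blue) the central-summit domains. Tags rise from 310 at 10 to 15% to 953.5 at 45 to 50%, and over the same bands the share with a knockout peak rises from 25.6% to 62.5%; the 19 domains of the outermost band stand above the next, at 47.4%.

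The 5 domains just inside the 0.15 limit had 160 to 385 control tags, and none of them held a knockout peak. The 5 just outside had 170 to 918 tags, and 2 of them held 1 knockout peak each, with 109 and 611 knockout tags.

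The domain with the most control tags lay on chromosome 19 from 47282705 to 47292438 (hg19). It held 2492 tags (exact Poisson interval 2395 to 2592) over 9734 bp, and its summit was 790 bp from the high-coordinate edge. It was followed by a domain on the same chromosome from 56109935 to 56119391, with 2017 tags and its summit 833 bp from the low-coordinate edge. The third, chromosome 1 positions 93296559 to 93305596, had 1819 tags. The fourth, chromosome 7 positions 76090084 to 76099602, had 1629, and the fifth, chromosome X positions 64886671 to 64896123, had 1430. These 5 domains spanned 9038 to 9734 bp, at the upper end of the selected widths, and all of them held a knockout peak. The genes at these positions were not analysed here.

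In the full control list, the median gaps to neighbouring peaks were shorter for one-sided than for central-summit domains. The median gap to the next control peak was 11543 bp on the side of the summit (quartiles 3862 and 32781 bp) and 15085 bp on the other side (4861 and 33636 bp). For central-summit domains the gaps were 27092 bp on the summit side and 27882 bp on the other side. Among control peaks with an FDR of 1% or less, the gap on the summit side was 27163 bp for one-sided domains (95% interval of the median 12844 to 49469 bp) and 45686.5 bp for central-summit domains (43707 to 47964 bp), and these intervals overlapped. On the other side it was 24487 bp (16112 to 37709 bp) and 46689.5 bp (44481 to 48679 bp), and these intervals did not overlap. A control peak within 500 bp was found on the summit side of 13 one-sided domains (11.9%, 6.51 to 19.5%) and on the other side of 8 (7.34%, 3.22 to 13.95%). In central-summit domains the shares were 4.02% on the summit side and 4.48% on the other. The intervals of the summit side and the other side of the one-sided domains overlapped. Neighbour distance comes from the list that supplied the summits and is given as a description.

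The tags of close neighbours were compared with those of the domain itself. Of the 18 control peaks that lay within 2 kb on that side, 6 had more tags than the domain next to them (33.3%, 13.3 to 59.0%), and their median was 185.5 tags. On the other side, 4 of 19 had more tags (21.1%, 6.05 to 45.6%), with a median of 183 tags. Among central-summit domains such neighbours had more tags in 23.6% (20.03 to 27.4%) of cases on the summit side and in 23.95% (20.5 to 27.7%) on the other, within the one-sided intervals. A neighbour within 2 kb was present on the summit side only for 14 domains, on the other side only for 15 and on both sides for 4, which left 76 domains with none.

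The selection did not use the knockout list, whose peaks were found in one-sided domains about as often as in control peaks of any width. At least 1 bp was shared with a knockout peak by 32 of the 109 (29.4%, 21.0 to 38.8%). Among all control peaks the share was 28.4%, among all control peaks of these lengths 58.3%, and among central-summit domains 62.2% (60.96 to 63.4%). The one-sided share was near that of the whole control list and below that of domains of the same lengths. With only knockout peaks over 300 bp wide it was 13.8% (7.91 to 21.7%), and that of the central-summit domains was 40.8% (39.5 to 42.0%). Among domains with an FDR of 1% or less, the one-sided share was 35.7% (25.6 to 46.9%) and the central-summit share 63.3% (62.0 to 64.5%). By end, 21 of the 58 domains with the summit at the low-coordinate end held a knockout peak (36.2%, 24.0 to 49.9%). At the high-coordinate end 11 of 51 did (21.6%, 11.3 to 35.3%), and these intervals overlapped.

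The control tags, which differed between the kinds of domain, moved with this share. Below 250 control tags, 5 of 41 one-sided domains held a knockout peak (12.2%, 4.08 to 26.2%), against 42 of 275 central-summit domains (15.3%, 11.2 to 20.1%). From 250 to under 500 tags the shares were 23.7% (11.4 to 40.2%) and 27.5% (24.4 to 30.8%). From 500 to under 1000 tags, 5 of 17 one-sided domains held one (29.4%, 10.3 to 55.96%), against 59.97% (57.9 to 62.0%). At 1000 tags or more all 13 one-sided domains held one (100%, 75.3 to 100%), against 78.4% (76.8 to 79.9%). The intervals overlapped in every class except that of 500 to under 1000 tags. When the central-summit domains were weighted to the control tags of the one-sided domains, their share was 33.1%, and when weighted to the widths it was 64.2%.

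**Figure D2:**
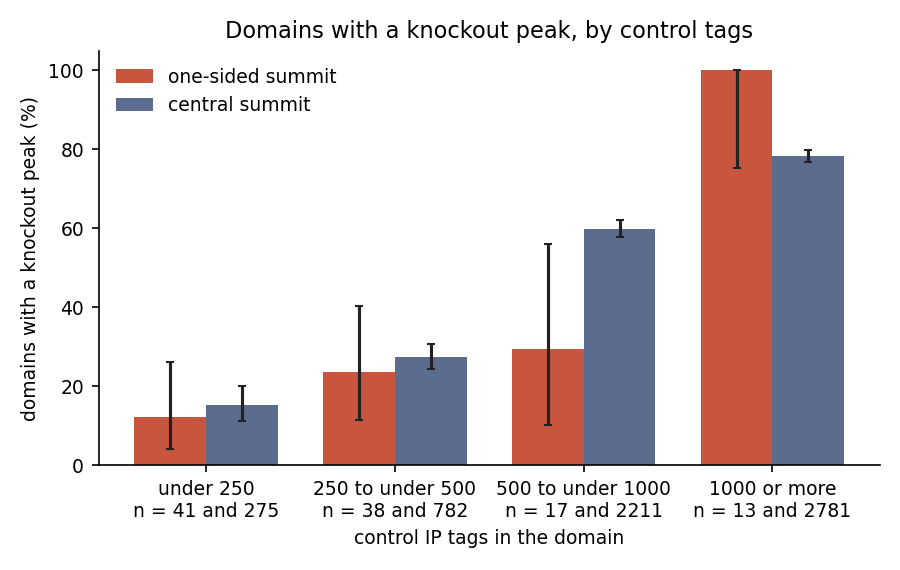
Percentage of control domains that share at least 1 bp with a knockout peak, by the number of control IP tags in the domain, for one-sided (red) and central-summit (blue) domains, with exact 95% intervals and the number of domains of each kind under each class. The intervals overlap in every class except that of 500 to under 1000 tags, where the one-sided share is 29.4% against 59.97%. At 1000 tags or more all 13 one-sided domains hold a knockout peak, against 78.4% of the central-summit domains.

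Within the one-sided domains, those with a knockout peak had higher median control tags and width. The 32 with a knockout peak had a median of 845.5 control tags (399 and 1263) and 6660.5 bp. The 77 without had a median of 276 tags (201 and 399) and 5695 bp. By width, 14 of 59 domains under 6 kb held a knockout peak (23.7%, 13.6 to 36.6%), 6 of 30 from 6 to under 8 kb (20%, 7.71 to 38.6%) and 12 of 20 from 8 kb (60%, 36.1 to 80.9%). The share did not rise with width below 8 kb, and the median in the widest class was 970 control tags. In the 32 domains the summed knockout tags ranged from 12 to 2856 with a median of 438.5, against a median of 724 in the 3762 central-summit domains that held a knockout peak. A total of 23 domains held 1 knockout peak, 4 held 2 and 5 held 3, or 46 knockout peaks in all. These 46 peaks had a median width of 300 bp and a median of 368 tags. Exactly 300 bp was the width of 29 of them (63.0%, 47.5 to 76.8%), compared with 44.5% (43.1 to 45.8%) of the 5145 knockout peaks in central-summit domains.

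Knockout summits in one-sided domains lay more often on the side of the control summit than on the far side, as they also did in central-summit domains turned in the same way. Each domain was turned so that distances run from the edge nearer the control summit. Of the 46 knockout summits, 35 lay on the summit side of the midpoint (76.1%, 61.2 to 87.4%) and 11 on the far side. The intervals over knockout summits treat them as independent, although 9 one-sided domains held 2 or 3 of them. Of the 22531 knockout tags in these 46 peaks, 85.5% were on the summit side, against 64.5% in central-summit domains turned in the same way. Single peaks of 2505 and 1717 tags were among those on the summit side of the one-sided domains. With central-summit domains left in genome orientation, 49.7% (48.3 to 51.1%) of the knockout summits lay in the lower-coordinate portion. Turned by the small displacement of their summits, 62.1% (60.8 to 63.5%) lay on the summit side of the midpoint, an interval that overlapped the one-sided one. By end, 25 of 31 lay there in the domains with a low-coordinate summit (80.6%, 62.5 to 92.5%) and 10 of 15 in those with a high-coordinate summit (66.7%, 38.4 to 88.2%). The outermost 15% of the one-sided domains on the summit side held 14 knockout summits (30.4%, 17.7 to 45.8%), and the outermost 15% at the far end held 2 (4.35%, 0.531 to 14.8%). In 21 of the 32 domains every knockout summit was on the summit side, in 4 every one was on the far side, and in 7 there were summits on both.

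**Figure D3:**
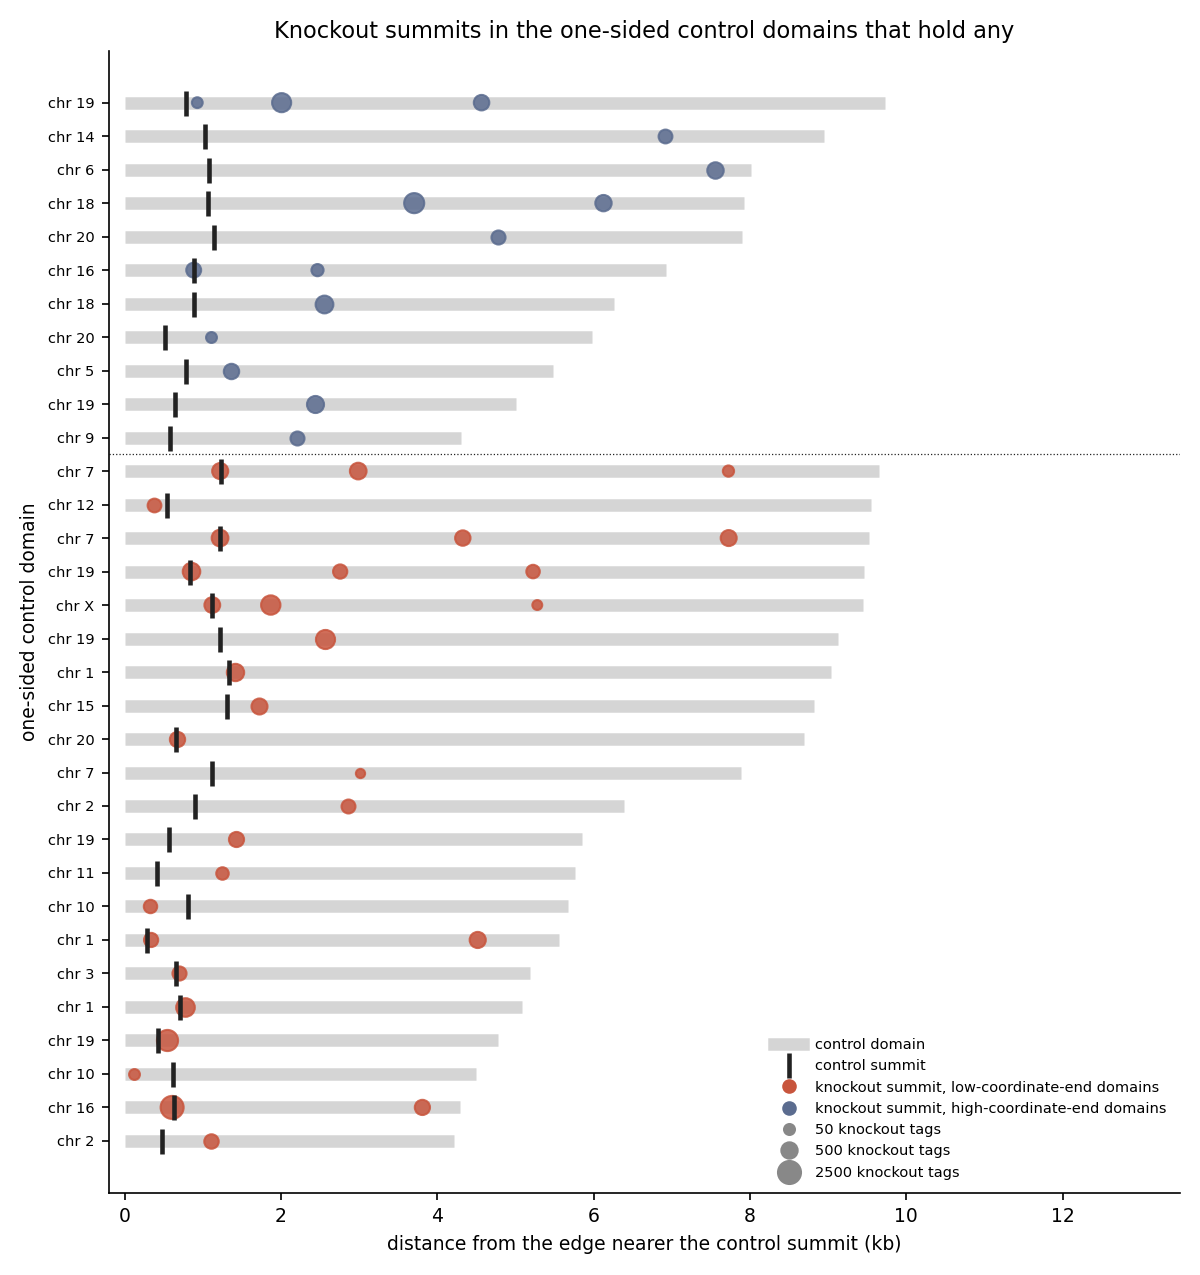
The 32 one-sided control domains that hold a knockout peak, each drawn as a grey bar from the edge nearer the control summit, in kb, with the control summit in black and the knockout summits as circles whose size grows with their tags. Domains above the dotted line have the control summit at the high-coordinate end (blue circles) and those below it at the low-coordinate end (red circles). Of the 46 knockout summits, 16 lie within 500 bp of the control summit, 14 of them in the lower group.

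The distance between knockout and control summits varied widely. Within 150 bp of the control summit lay 13 of the 46 knockout summits (28.3%, 16.0 to 43.5%), compared with 23.2% (22.1 to 24.4%) in central-summit domains. Within 500 bp there were 16 (34.8%, 21.4 to 50.2%), against 47.97% (46.6 to 49.3%), and within 1 kb 23 (50.0%, 34.9 to 65.1%), against 72.4% (71.1 to 73.6%). The median distance was 1041 bp (quartiles 125 and 2987 bp) in the one-sided and 531 bp (172 and 1073 bp) in the central-summit domains. The intervals overlapped at 150 bp and 500 bp and did not at 1 kb. Counted once per domain, by the nearest knockout summit, the one-sided shares were 40.6%, 50.0% and 68.75%. Those of central-summit domains were 31.8%, 64.7% and 85.9%, with the same pattern of overlap. At the mirror position, the same distance from the far edge, 1 of the 46 knockout summits lay within 500 bp (2.17%, 0.0550 to 11.5%). A knockout summit was nearer to the control summit than to the domain midpoint in 27 of 46 cases (58.7%, 43.2 to 73.0%), against 55.96% in central-summit domains. It was so in 22 of 31 cases (71.0%, 52.0 to 85.8%) with a low-coordinate summit and in 5 of 15 (33.3%, 11.8 to 61.6%) with a high-coordinate one.

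Knockout summits lay nearer the control summit in the domains with a low-coordinate summit. In domains with the control summit at the low-coordinate end, 14 of 31 knockout summits lay within 500 bp of it (45.2%, 27.3 to 64.0%), at a median distance of 626 bp. At the high-coordinate end 2 of 15 did (13.3%, 1.66 to 40.5%), at a median distance of 1669 bp. When the domains were divided into 3 equal parts, the part nearest the control summit held 22 of 31 knockout summits at the low-coordinate end (71.0%, 52.0 to 85.8%) and 5 of 15 at the high-coordinate end (33.3%, 11.8 to 61.6%). In central-summit domains the knockout summit was a median of 13 bp below the control summit in genome coordinates, with 48.9% at a higher coordinate. The intervals of the ends overlapped and the difference between them was not tested.

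**Figure D4:**
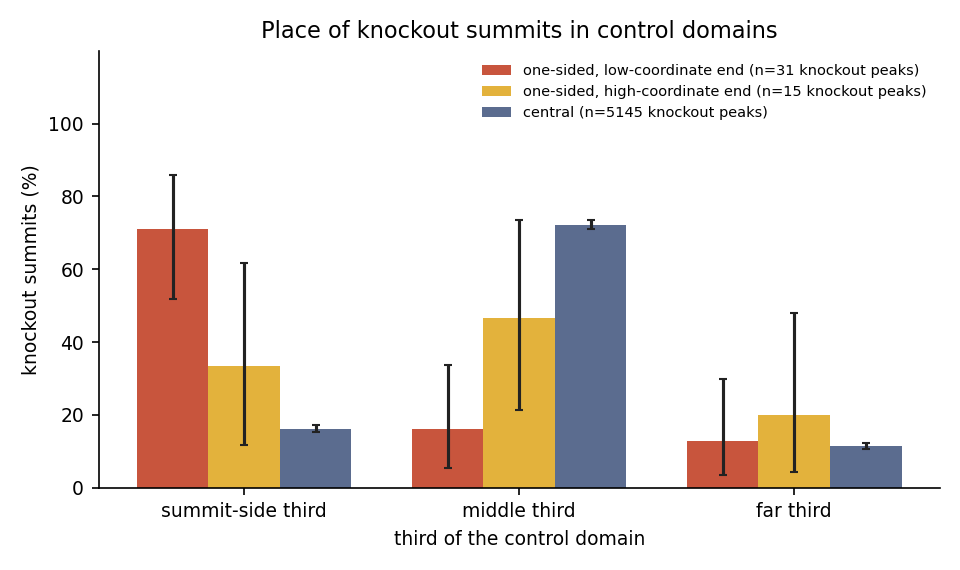
Percentage of knockout summits in the 3 equal parts of the control domain, counted from the edge nearer the control summit, with exact 95% intervals, for one-sided domains with the summit at the low-coordinate end (red, 31 knockout peaks) or high-coordinate end (yellow, 15) and for central-summit domains (blue, 5145). The part at the edge nearer the control summit holds 71.0%, 33.3% and 16.3%. In central-summit domains the control summit itself lies in the middle part, which holds 72.2%, so the parts are not alike between the kinds of domain.

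Several domains showed a knockout peak placed almost exactly under the one-sided summit. On chromosome X the control summit of the domain from 64886671 to 64896123 and the summit of a knockout peak with 426 tags were at the same base, 64887792. Another knockout peak, 748 bp from the control summit, held 1139 tags, and the last, 4158 bp away, held 23. On chromosome 20, in the domain from 62167448 to 62176136, a knockout peak of 361 tags had its summit 5 bp from the control summit. The domain with the most knockout tags was on chromosome 16 from 66440189 to 66444474. It held only 420 control tags (381 to 462), and its knockout peaks had 2505 tags at 28 bp from the control summit and 351 tags near the far edge.

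In other strong domains the knockout tags lay inwards of the control summit. The strongest domain, on chromosome 19 from 47282705, held knockout peaks of 46, 1076 and 389 tags at 140, 1219 and 3777 bp from the control summit, so the peak under the summit was the smallest of the 3. On chromosome 18, the domain from 47011640 to 47019570 had 858 control tags and 1870 knockout tags. Its knockout summits lay 2639 and 5061 bp from the control summit, with 1360 and 510 tags. By contrast, on chromosome 19 from 50270108 to 50274882, 1717 knockout tags in 1 peak were centred 120 bp from the control summit, beside 890 control tags. The second strongest domain, on chromosome 19 from 56109935, held 717, 250 and 186 knockout tags at 23, 1925 and 4393 bp.

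The 4 domains with all knockout summits on the far side all had the control summit at the high-coordinate end. They included 3 with moderate or low control tags. On chromosome 6, from 16722713 to 16730730, 449 control tags had their summit near the high-coordinate edge, and a knockout peak of 527 tags lay 6465 bp away, at 94.1% of the length. On chromosome 20, from 49289863 to 49297761, 443 control tags stood beside a knockout peak of 233 tags at 60.5% of the length. On chromosome 9, from 139946425 to 139950729, the knockout summit with 229 tags was at 51.2%, close to the midpoint. The fourth, on chromosome 14 from 91706551 to 91715495, had 1116 control tags and 212 knockout tags at 77.3% of the length. The chromosome 9 domain had the fewest control tags of all 109, at 135 (113 to 160), and its deposited FDR was 13.38%.

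A pair of domains on chromosome 7 matched each other closely. They ran from 76090084 to 76099602 and from 76588196 to 76597849, with 488593 bp between them. Their widths were 9519 and 9654 bp, their control summits were 1224 and 1227 bp from the low-coordinate edge, and their control tags were 1629 and 1257. Each held 3 knockout peaks. The first had its summit 1221 and 1223 bp from the edge, with 571 and 472 tags, and the last was at 7729 and 7726 bp, with 457 and 60 tags. The middle peaks differed in place, at 4327 and 2989 bp, with 375 and 562 tags. Summit and outer knockout peaks thus differed by 3 bp or less in offset, while the middle peaks differed by 1338 bp. Tags in repeated sequence cannot be placed with certainty, and whether these stretches are copies of each other was not tested. Without these domains 28.0% of the one-sided domains held a knockout peak, and 77.5% of the knockout summits were on the summit side.

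**Figure D5:**
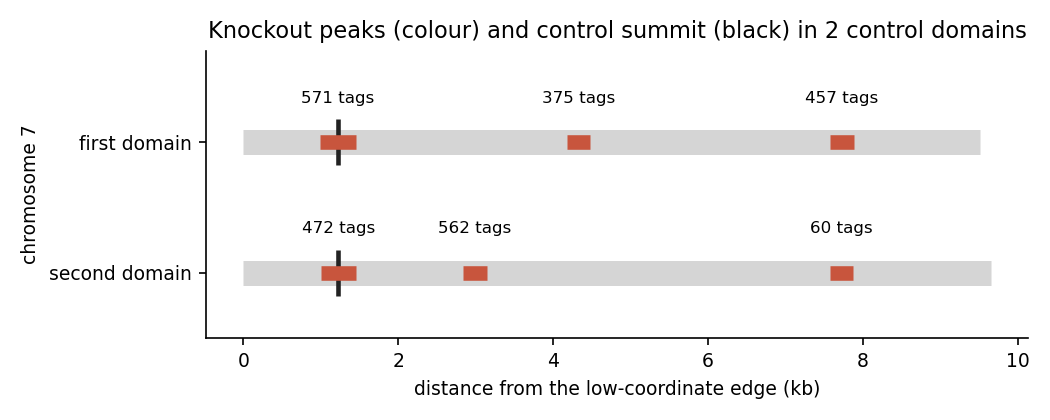
The 2 matching one-sided control domains on chromosome 7, drawn from their low-coordinate edge in kb, with the control summit in black and the knockout peaks to scale in red with their tag counts. The control summits lie at 1224 and 1227 bp, and the outer knockout summits agree to within 3 bp.

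Among the 77 domains without a knockout peak, the strongest lay on chromosome 14 from 101153816 to 101160345 with 860 control tags (803 to 919). The nearest knockout peak was 42812 bp away. Chromosome 12 positions 76368744 to 76378273 had 845 control tags and the nearest knockout peak 29214 bp away. Chromosome 9 positions 69877122 to 69884899 had 734 tags and a knockout peak 183 bp away. Chromosome 1 positions 247289258 to 247294054 had 580 tags and a distance of 21683 bp, and chromosome 4 positions 38314285 to 38322389 had 578 and 36502 bp. The domain on chromosome 9 was therefore missed by 183 bp, and that knockout peak, with 680 tags, lay beyond the edge away from the control summit. Over the 77 domains the median gap to a knockout peak was 19874 bp, against 27751 bp for the 2287 central-summit domains without one.

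Knockout peaks just outside a one-sided domain were counted by side. Within 2 kb of the edge, without touching the domain, they were found on the summit side of 2 domains (1.83%, 0.223 to 6.47%) and on the other side of 8 (7.34%, 3.22 to 13.95%). The 8 on the other side included 1 knockout peak of 27 tags on chromosome 19 that lay between 2 one-sided domains and counted for both. In central-summit domains the shares were 3.21% (2.78 to 3.68%) on the summit side and 2.61% (2.22 to 3.05%) on the other. Between the kinds of domain the intervals overlapped on the summit side. On the other side they did not, but the one-sided interval counts separately the 2 domains that share 1 knockout peak. It was not recomputed with that peak counted once. The intervals of the sides of the one-sided domains overlapped. On chromosome 19, the domain from 39336066 to 39341067 had 3 such peaks beyond its summit-side edge, with 853, 1112 and 162 tags, all overlapping other control peaks. Within the domain itself the only knockout peak had 631 tags and lay 1787 bp from the control summit.

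One-sided domains were spread over 21 chromosomes. Chromosomes 21, 22 and Y had none among 100, 263 and 3 control peaks of these lengths, where a count of 0 allows exact upper limits of 3.62%, 1.39% and 70.8%. Chromosome 18 had the highest share of its control peaks of these lengths, 6 of 150 (4%, 1.48 to 8.503%), followed by chromosome 20 with 8 of 376 (2.13%, 0.923 to 4.15%). Chromosome 1 had the most, 14 of 1330 (1.05%). On chromosome 19, 6 of the 8 one-sided domains held a knockout peak, and on chromosomes 4, 8, 13 and 17 none of 1, 4, 3 and 2 did. All 754 control peaks of these lengths on chromosome 19 held 780 knockout peaks. On chromosomes 4, 8, 13 and 17, 414, 470, 218 and 706 such control peaks held 306, 291, 150 and 603. These are counts of knockout peaks, and 1 control peak can hold several, so they are not shares of control peaks. Shares by chromosome are not given here. Over all chromosomes, 58.3% of the control peaks of these lengths and 29.4% of the one-sided domains held a knockout peak. The one-sided counts per chromosome are small, and a difference between chromosomes was not tested. In 15 cases consecutive one-sided domains on a chromosome lay within 1000000 bp of each other. In 1 of these they were direct neighbours in the control list, on chromosome 1 from 95098137 to 95103032 and from 95108968 to 95115097. Both of these had the summit at the high-coordinate end, with 198 and 520 tags, and neither held a knockout peak.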

How the data were processed

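H3K4me3 ChIP-seq peak lists of 1 control and 1 knockout IP, each called against the input of its genotype, were analysed. Alignment and peak calling tools listed in the submitters' processing notes are Bowtie2 2.2.4 and MACS 1.4.3, with the build hg19. None of these sources states how duplicate tags were handled. Some knockout peaks held more tags than positions on both strands, such as 1360 tags in 300 bp on chromosome 18. Tags at the same position were therefore counted more than once there, and whether they are copies of 1 fragment was not tested. Per the file headers, MACS used a p cutoff of 0.0001, a tag size of 150 bp and a d of 300 bp, and scaled the larger library to the smaller. The header of the knockout list calls its library K6, a name no label carries; the list was matched by its file's name. Input libraries carry IgG as antibody label. For 3 libraries the labelled line differs from MDA-MB-231 in its last digits; the title's name was taken.

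Tags are given as deposited, raw counts per peak. The deposited fold enrichment is a ratio to the local input background. The deposited FDR, in percent, served as a filter. The deposited score, from the MACS p, was not used. Start, end, width and summit offset are in bp.

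Domains were selected by width and summit offset divided by width. Overlap meant at least 1 bp and was checked with bedtools 2.31.1. Shares have exact Clopper-Pearson 95% intervals and tags exact Poisson intervals. A median's interval, used to judge alternatives, came from order statistics. Any copies of 1 fragment count as separate tags, so intervals cover counting error only. Python 3.11.15, numpy 2.4.6, pandas 2.3.3 and scipy 1.17.1 were used, and the overlap and offset steps were tested on simulated data. The members and alternatives were chosen with earlier results of these data known. Classes of control tags, bands of summit position, parts of the domain and the chromosome 7 pair were added after the values were seen. Regions were named by rule: the 5 with most control tags, the 5 with most knockout tags, the 5 strongest without a knockout peak, the 3 with most knockout peaks (ties in file order), and the 3 with most knockout tags all on the far side. The chromosome 20 domain from 62167448, the second of the chromosome 7 pair, the chromosome 19 domain from 39336066 and the neighbouring pair on chromosome 1, and the fourth domain with far-side summits, were chosen after their values were seen. Genes, start sites, cell type markers and sequences were not analysed here, because the annotation used here is of another build than the files.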

Additional observations from a re-analysis of the deposited data

How the results depend on the processing

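Of 67 values recomputed under alternatives, 42 stayed within 1.5 times (counts) or within the counting interval of the reported value, and 25 moved. No paired analysis was possible because each genotype has 1 IP library. The 109 one-sided domains became 19 with limits of 0.10 and 0.90, 401 with 0.20 and 0.80, 59 at under 6 kb and 50 at 6 kb or more. At an FDR of 1% or less, 84 remained. The share with a knockout peak, 29.4%, was 47.4% with the 0.10 limit and 13.8% once knockout peaks of 300 bp were dropped. The central-summit share, 62.2%, was 54.5% at under 6 kb, 74.1% at 6 kb or more, 40.8% with the wider knockout peaks, 64.2% weighted by width and 33.1% weighted by control tags. The gap on the summit side, 11543 bp, was 27163 bp among control peaks with an FDR of 1% or less, a list with fewer peaks. There the one-sided gap on the other side was 24487 bp, and the central-summit gaps were 45686.5 bp on the summit side and 46689.5 bp on the other, against 15085, 27092 and 27882 bp. The domains with a knockout peak beyond the summit-side edge, 2 as reported, numbered 0 with the 0.10 limit, 6 with the 0.20 limit, 0 at 6 kb or more, 1 at the FDR limit and 6 within 5 kb. Beyond the other edge, 8 as reported, they numbered 2, 14, 4 at under 6 kb, 4 at 6 kb or more and 14 within 5 kb. Counts that fell under narrower limits include fewer domains by construction, and elsewhere the cause was not tested. The share of knockout summits on the summit side ran from 70.5% to 85.7% over its alternatives, among them 84.4% with 1 knockout peak per domain. With 46 knockout peaks in 32 domains, the number of regions limits the precision of every position given here. Leaving out the chromosome 7 pair, and the FDR limit for gaps other than the one-sided gap on the summit side, were chosen after seeing the data.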

Other observations

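Some one-sided domains had their edge close to another called peak. A control peak within 1 kb was present for 24 of the 109 one-sided domains (22.02%, exact Clopper-Pearson 95% interval 14.6 to 31.0%) and for 11.9% (11.0 to 12.7%) of the central-summit domains. When such peaks were merged, the stretches around these 24 domains had a median length of 12635.5 bp and a maximum of 45709 bp. In 13 of the 24 the summit then lay outside the outer 15% of the merged stretch. In 13 of the 24 the one-sided domain held the highest fold enrichment of its stretch, as given by the authors. The other 85 one-sided domains had no control peak that close.

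The one-sided domains with a close neighbour on the summit side (within 2 kb) numbered 18, of which 9 overlapped a knockout peak (50.0%, 26.02 to 73.98%), at a median of 228.5 control tags. Of the 91 without such a neighbour 23 did (25.3%, 16.7 to 35.5%), at a median of 334 control tags. The intervals overlapped, and the difference was not tested. In central-summit domains the same split gave 57.2% (52.8 to 61.4%) and 62.7% (61.4 to 64.0%).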
